A study of Homo sapiens with 6 samples.

Results

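MHC class I antigen presentation is described here through 9 genes, picked by symbol and function from the 34694 genes listed in the deposited array table: the class I heavy chains HLA-B, HLA-C, HLA-E and HLA-F, the light chain B2M, the peptide transporter subunit TAP1, the loading chaperone TAPBP, and the immunoproteasome subunits PSMB8 and PSMB9. Total RNA of SCC25, a long-established line of oral squamous carcinoma cells, was hybridised to Illumina expression arrays, which report a fluorescence signal per gene. The aspirin group (3 arrays) came from SCC25 cells given 2.0 mM aspirin, which blocks the cyclooxygenase enzymes, and the control group (3 arrays) from SCC25 cells left untreated, all cultured for 72 h. Arrays were numbered 1 to 3 in each group, with replicates 1 and 3 on chip 1 and replicate 2 on chip 2. The labels do not say that replicates came from separate cultures. A p-value here therefore reflects variation among the 6 arrays, which may be technical, and the small number of arrays limits its precision.

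Class I molecules sit on nearly all nucleated cells and show short peptides from inside the cell to CD8+ T cells. The proteasome cuts proteins into peptides, and the immunoproteasome, in which PSMB8 and PSMB9 take the place of constitutive catalytic subunits, changes where the cuts fall. Peptides pass into the endoplasmic reticulum through the TAP1 and TAP2 transporter, and tapasin (TAPBP) holds the empty chain, already paired with B2M, beside the transporter until a peptide binds. Many of these genes respond to interferons through IRF1 and the transactivator NLRC5, and loss of class I from the surface is a known route by which oral and other carcinomas escape T cells.

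All 9 genes were above background on all 6 arrays. The differences below are aspirin minus control on the log2 scale of background-corrected, quantile-normalized signal. They were tested with limma over the 15128 genes that passed a filter on detection, with a threshold of 0.05 on the adjusted p. HLA-C missed that filter and was tested among the genes that passed a filter on signal instead, so counts over the members concern the other 8. Arrays of the same number deviated together, and a fit blocked on that number is given beside the plain one where it changes a call. In the blocked fit a p-value reflects only the spread of the differences between same-numbered arrays, which may also be technical.

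Without the block 0 of the 8 members passed the threshold in either direction, while 20.2% of all genes tested did, and 3 members (HLA-E, PSMB8 and PSMB9) had an unadjusted p under 0.05, against 34.1% of all genes. With the replicate block 3 of the 8 were lower with aspirin (HLA-F, PSMB8 and PSMB9), against a share of 15.7% of all genes called lower in that fit. In the same fit 0 of the 8 were called higher, against 17.5% of all genes. HLA-C was lower with aspirin both without and with the block. HLA-E was the member whose difference lay clearly above 0, and it did not pass in either fit. The median difference over the 8 members was -0.29 and that over all genes tested was 0.02.

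Stretches before the start site of 5 members are shown because the class I genes carry response elements within a short reach of the start, and because TAP1 and PSMB9 share one region. They are RefSeq sequences on GRCh38.p14, 5′ to 3′ on the gene's own strand, with capitals for a match to an interferon response pattern or to the kappaB consensus. The first 3 run from position -200 to position -41, counted from the start site: HLA-B lies at chr6:31357220-31357379 (minus strand), HLA-C at chr6:31272133-31272292 (minus strand) and HLA-F at chr6:29723234-29723393 (plus strand). The other pair run from 250 bases before the start to the base next to it: TAP1 at chr6:32853705-32853954 (minus strand) and PSMB9 at chr6:32853942-32854191 (plus strand).
HLA-B: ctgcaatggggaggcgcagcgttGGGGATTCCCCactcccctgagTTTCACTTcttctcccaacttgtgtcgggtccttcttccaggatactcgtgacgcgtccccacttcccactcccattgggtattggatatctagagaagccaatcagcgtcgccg
HLA-C: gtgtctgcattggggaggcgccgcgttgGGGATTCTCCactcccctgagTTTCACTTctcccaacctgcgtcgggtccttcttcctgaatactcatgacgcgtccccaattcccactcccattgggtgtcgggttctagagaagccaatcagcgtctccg
HLA-F: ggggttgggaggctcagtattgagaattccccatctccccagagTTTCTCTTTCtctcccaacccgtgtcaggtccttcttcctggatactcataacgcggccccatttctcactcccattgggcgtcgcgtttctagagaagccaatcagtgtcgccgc
TAP1: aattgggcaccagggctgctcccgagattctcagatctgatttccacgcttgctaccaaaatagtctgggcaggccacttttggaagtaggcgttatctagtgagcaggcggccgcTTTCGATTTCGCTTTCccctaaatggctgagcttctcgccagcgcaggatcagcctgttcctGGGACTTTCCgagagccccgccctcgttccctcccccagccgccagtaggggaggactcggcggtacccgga
PSMB9: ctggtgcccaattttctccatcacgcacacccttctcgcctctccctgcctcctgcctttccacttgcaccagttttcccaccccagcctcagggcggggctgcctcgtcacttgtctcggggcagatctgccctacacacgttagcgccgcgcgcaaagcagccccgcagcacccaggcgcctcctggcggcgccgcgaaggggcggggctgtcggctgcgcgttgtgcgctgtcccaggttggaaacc

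Windows of 300 bases, from 250 before to 50 after the start, were matched for 8 of the 9 members, all but HLA-E. They were searched on both strands for the full interferon-stimulated response element, a pair of GAAA runs with any 2 bases between them, and for TTTCNCTT, the shorter core found in class I chain promoters. These patterns can overlap, as in HLA-F. The full element was present in 5 of the 8 members (HLA-F, B2M, TAP1, TAPBP and PSMB8) and in 3.57% of 35116 promoter windows. The shorter core was present in 6 of the 8 (HLA-B, HLA-C, HLA-F, TAP1, TAPBP and PSMB8) and in 7.63% of all windows, and 7 of the 8 held at least one of the patterns, against 9.8% of all windows. The exception was PSMB9. Its window overlaps that of TAP1, on the opposite strand, by 13 bases, and their start sites lie 488 bases apart.

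The kappaB consensus was present in 5 of the 8 windows (HLA-B, HLA-C, B2M, TAP1 and TAPBP) and in 11.3% of all. The CCAAT box (CCAAT) was in 6 of the 8 and 34.6% of all, the cyclic AMP response half-site (TGACG) in 5 and 24.6%, and the gamma-activated site (TTCNNNGAA) in 2 and 7.66%. TAP1 and PSMB8 have several annotated start sites, and a match in either window was counted. The shares of all windows count each window by itself, so these genes had more chances of a match. For PSMB8 the interferon patterns lay in a single window. A match is a run of letters and does not show that a factor binds there.

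Among the heavy chains, HLA-C had the largest measured shortfall with aspirin and HLA-E went the other way. HLA-C pairs with B2M to present peptides and is also the main ligand of killer-cell immunoglobulin-like receptors on natural killer cells. Its normalized log2 signals were 7.53, 7.79 and 7.99 on aspirin arrays 1 to 3, against 8.21, 8.55 and 8.77 on control arrays 1 to 3. Every aspirin array lay below every control array, and each array pair differed by a like amount (-0.68, -0.77 and -0.79 in pairs 1 to 3). The mean difference was -0.74 ± 0.19 (SE), or 0.597 times control, with an adjusted p of 0.0234 without the block and 0.00195 with it, among genes that passed the signal filter. With no filter, over all listed genes, the adjusted p was 0.0529 without the block. HLA-C was left out by the detection filter because its deposited detection score was between 0.509 and 0.787 on aspirin arrays and between 0.652 and 0.983 on control arrays.

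HLA-F, a nonclassical chain that binds receptors on natural killer cells, had levels of 9.85, 10.87 and 10.72 on aspirin arrays, against 10.21, 11.20 and 11.35 on control arrays. It was lower with aspirin in each pair (-0.36, -0.34 and -0.63), but the groups overlapped because replicate 1 was low in both. The mean difference of -0.44 had a SE of 0.35 and an adjusted p of 0.423 without the block. With the block the SE was 0.12 and the adjusted p 0.0285, so HLA-F was called lower only in the fit that compares arrays of the same number.

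HLA-E, the nonclassical chain that displays leader peptides of other class I chains to the NKG2 receptors of natural killer cells, had levels of 11.83, 11.63 and 11.64 on aspirin arrays, against 11.11, 11.38 and 11.39 on control arrays. All aspirin arrays lay above all control arrays. The difference was 0.41 ± 0.14 (SE), or 1.33 times control, with an adjusted p of 0.0772 without the block and 0.0561 with it. Pair 1 differed most (0.72, against 0.25 in each of the others), since replicate 1 had both the highest aspirin and the lowest control level.

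HLA-B, a classical chain that presents peptides to T cells, had levels of 11.43, 12.30 and 12.35 on aspirin arrays, against 11.32, 12.70 and 12.67 on control arrays. Replicate 1 was about as low in both groups, and the groups overlapped. The pairs went in different directions, with 0.11 in pair 1 and -0.40 and -0.32 in pairs 2 and 3. The mean difference of -0.20 (95% interval -1.10 to 0.69) had an adjusted p of 0.767, and that of the blocked fit ran from -0.52 to 0.12. Both intervals hold 0.

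B2M, the invariant light chain without which class I heavy chains do not reach the surface, had levels of 12.54, 13.05 and 12.98 on aspirin arrays, against 12.66, 13.31 and 13.11 on control arrays. The groups overlapped, although each pair was slightly lower with aspirin (-0.12, -0.25 and -0.13). The difference of -0.17 ± 0.21 (SE) had an adjusted p of 0.626. With the block its 95% interval ran from -0.44 to 0.10.

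**Figure D1:**
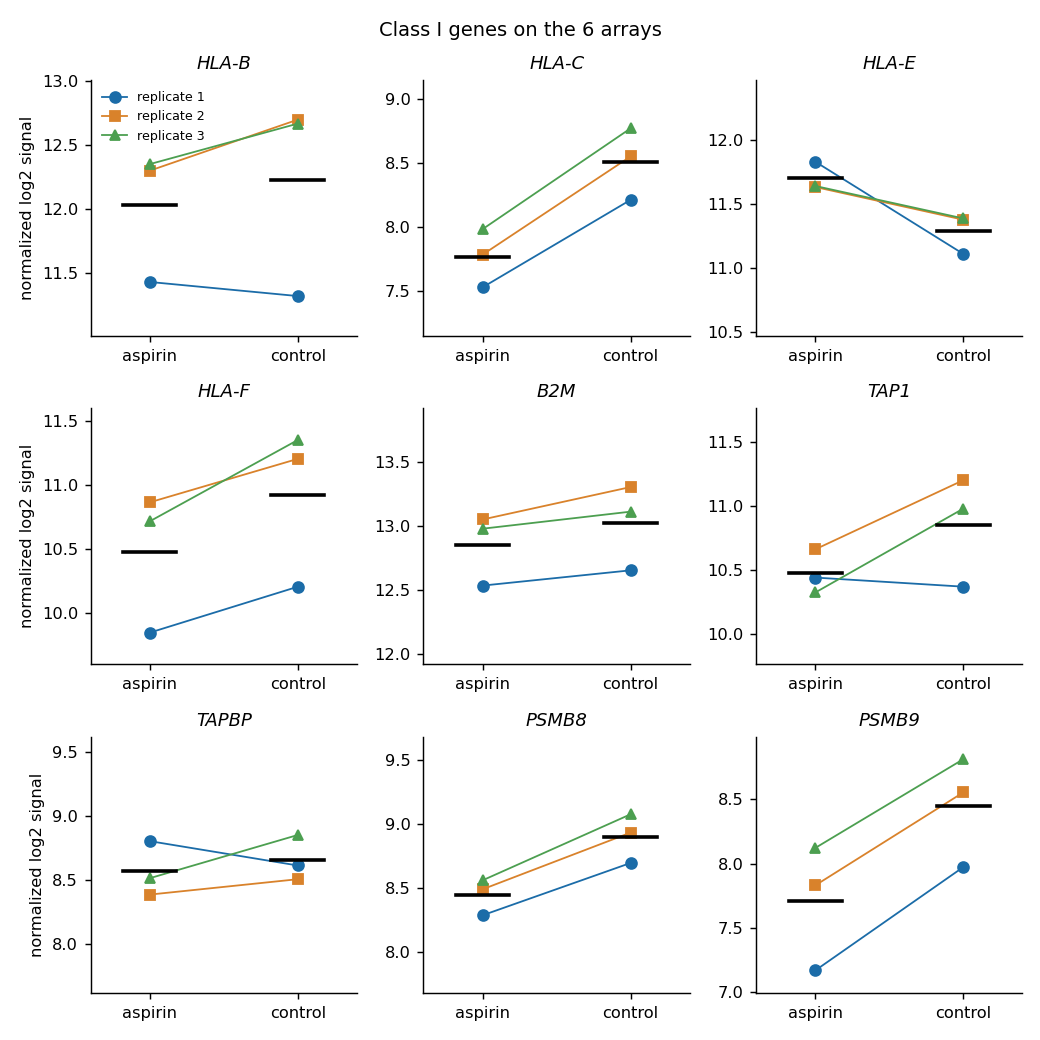
Normalized log2 signal (vertical axis) of the 9 class I genes on the aspirin arrays (left in each panel) and control arrays (right), with a line joining arrays of the same number and a bar at each group mean. Each panel spans a like range of log2 units around its own values. All lines rise from aspirin to control for HLA-C, HLA-F, B2M, PSMB8 and PSMB9, and all fall for HLA-E. The replicate 1 points of HLA-B and HLA-F lie well below the others in both groups.

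Of the genes that bring peptide to the chains, neither the transporter nor the loading chaperone passed the threshold. TAP1, which with TAP2 forms the peptide transporter, had levels of 10.44, 10.66 and 10.32 on aspirin arrays, against 10.37, 11.20 and 10.98 on control arrays. Control array 1 was as low as the aspirin arrays, so pair 1 showed 0.07 while pairs 2 and 3 showed -0.54 and -0.66. The difference was -0.37 ± 0.22 (SE), with an adjusted p of 0.273. Without control array 1 it was -0.61 with an adjusted p of 0.0394, so leaving out that array brought TAP1 past the threshold. With any other single array left out TAP1 did not pass. Its difference then ran from -0.47 to -0.20, with adjusted p values of 0.261 to 0.599 in limma.

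TAPBP, the chaperone tapasin, had levels of 8.81, 8.39 and 8.52 on aspirin arrays, against 8.62, 8.51 and 8.85 on control arrays. The groups overlapped and the pairs differed in sign (0.19, -0.12 and -0.34). The difference was -0.09 ± 0.16 (SE), with an adjusted p of 0.751 and a 95% interval of -0.46 to 0.28.

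Both immunoproteasome subunits were lower with aspirin on each pair of arrays. PSMB8, which gives the immunoproteasome its chymotrypsin-like cutting, had levels of 8.29, 8.49 and 8.56 on aspirin arrays, against 8.69, 8.93 and 9.07 on control arrays. The groups did not overlap, and the pairs differed by -0.41, -0.44 and -0.52. The difference of -0.46 ± 0.15 (SE), or 0.730 times control, had an adjusted p of 0.0696 without the block and 0.0195 with it.

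PSMB9, which takes the place of the caspase-like subunit PSMB6, had levels of 7.17, 7.83 and 8.12 on aspirin arrays, against 7.97, 8.56 and 8.81 on control arrays. The groups overlapped because control array 1 lay below aspirin array 3, while the pairs gave nearly the same difference (-0.81, -0.73 and -0.69). The difference was -0.74, or 0.598 times control. Its SE was 0.29 and its adjusted p 0.104 without the block, and 0.11 and 0.00282 with it. The size depended on the background estimate: with the background taken from all listed genes the difference was -0.40, with an adjusted p of 0.0437 in the blocked fit.

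**Figure D2:**
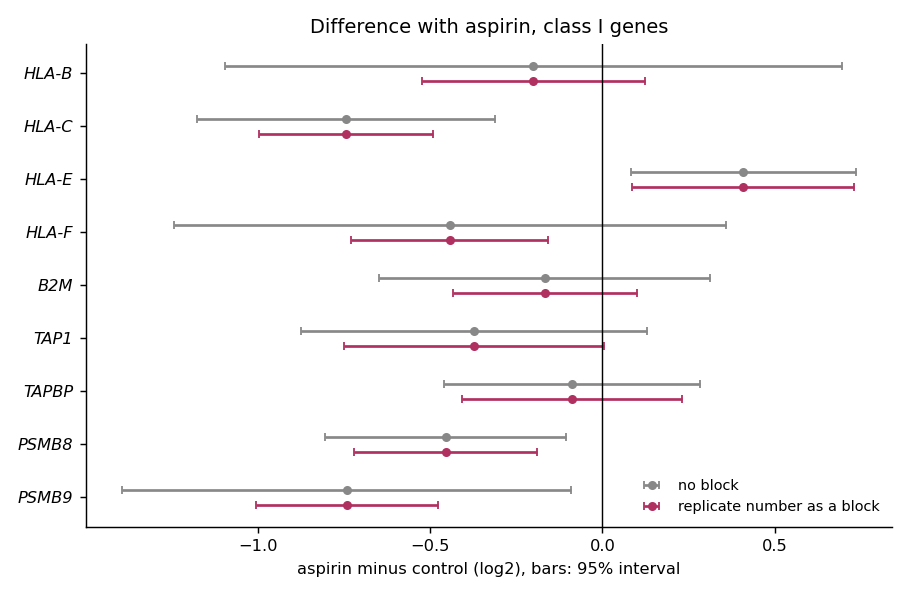
Aspirin minus control (log2, horizontal axis) for each class I gene, with 95% intervals from the plain fit (grey) and from the fit blocked on replicate number (red). HLA-C comes from the fit with a filter on signal, the others from the fit with a filter on detection. The block narrowed the intervals of HLA-B, HLA-F and PSMB9 most, and the blocked intervals of HLA-C, HLA-F, PSMB8 and PSMB9 lie below 0 while that of HLA-E lies above it.

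The groups did not overlap for 2 of the 8 members tested (HLA-E and PSMB8), against 38.8% of all genes tested. Aspirin was lower in every array pair for 4 of the 8 (HLA-F, B2M, PSMB8 and PSMB9), against 28.9% of all genes, and higher in every pair for HLA-E. The median over the 8 members was -0.02 in pair 1, -0.37 in pair 2 and -0.43 in pair 3. Chip 2 held pair 2 alone. On chip 1 alone, with replicates 1 and 3, the differences were -0.46 for PSMB8 (adjusted p 0.247), -0.75 for PSMB9 (0.303), -0.50 for HLA-F (0.536) and 0.49 for HLA-E (0.188), each of the same sign as in pair 2.

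Replicate 1 stood apart for a subset of the members in both groups, a contrast chosen after the data were seen. Replicate 1 minus the mean of replicates 2 and 3, over both groups, was -1.13 ± 0.15 (SE) for HLA-B, with an adjusted p of 0.00810 in the blocked limma fit. It was -1.01 ± 0.13 for HLA-F (adjusted p 0.00790) and -0.76 ± 0.12 for PSMB9 (adjusted p 0.0155). These 3 of the 8 members were called lower in replicate 1, against 4.10% of all genes tested. The contrast missed the threshold for B2M (-0.52, adjusted p 0.0522), and for HLA-C under the signal filter (-0.40, adjusted p 0.0732). TAP1 was low in replicate 1 of the control group (-0.72) but not of the aspirin group (-0.05). The source of this replicate's difference was not tested.

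**Figure D3:**
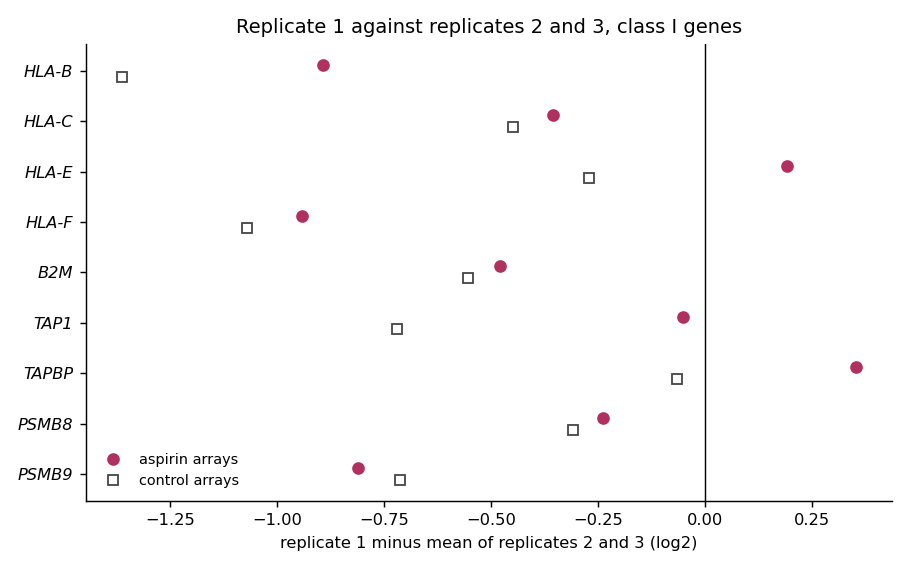
Replicate 1 minus the mean of replicates 2 and 3 (log2, horizontal axis) for each class I gene, in the aspirin group (filled circles) and in the control group (open squares). HLA-B, HLA-F, B2M and PSMB9 lie at -0.48 or lower in both groups, and TAPBP and HLA-E lie above 0 in the aspirin group and below it in the control group.

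The mean standardised level of the 8 members was -0.65, -0.10 and -0.09 on aspirin arrays 1 to 3, against -0.70, 0.66 and 0.88 on control arrays 1 to 3. It was low on both replicate 1 arrays and highest on control arrays 2 and 3. Across the 6 arrays HLA-F, HLA-B, B2M, PSMB9, TAP1 and PSMB8 correlated with the mean of the other members at r between 0.75 and 0.92, while TAPBP (-0.11) and HLA-E (-0.35) did not. The arrays share replicate number and treatment, so these values describe 6 arrays only. The genes whose level followed the members' mean most closely were HLA-H (r = 0.994), a class I pseudogene, TDRD7 (0.991), SNAI2 (0.991), which encodes the transcription factor Slug, DPYSL3 (0.989) and ZC3H12A (0.988), which encodes an RNase that degrades inflammatory transcripts. DPYSL3 was above background on 2 of 3 arrays in each group. The most opposite were CHD9 (-0.990), TSG101 (-0.986), TMEM189-UBE2V1 (-0.984), LYPLA2 (-0.984) and IMMP2L (-0.983).

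Of 5 further class I chain genes 3 were listed and tested. Without the block 0 passed in limma, against 20.2% of all genes. In the same fit 0 had an unadjusted p under 0.05, against 34.1% of all genes. HLA-G, a chain best known from the placenta, differed by -0.41 (adjusted p 0.420 without the block, 0.0325 with it), and HLA-H by -0.35 (adjusted p 0.427). Class I genes are near-identical over long stretches and highly variable between people. Cross-hybridisation of their probes, and the match of the probes to the alleles of SCC25, were not tested, so the values of the individual HLA genes are uncertain.

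Of 11 genes for peptide loading and trimming 10 were tested, and the median difference was 0.07. Without the block 1 was higher and 2 were lower with aspirin, while 20.2% of all genes passed in either direction. ERAP2, an aminopeptidase that trims peptides in the endoplasmic reticulum, averaged 5.61 ± 0.19 on aspirin arrays and 6.45 ± 0.13 on control arrays (SD), a difference of -0.84 ± 0.15 (SE, adjusted p 0.00687). TAPBPL, a tapasin relative that edits bound peptides, averaged 6.14 ± 0.34 on aspirin arrays and 7.14 ± 0.34 on control arrays (SD) and differed by -0.99 ± 0.23 (SE, adjusted p 0.0176). HSPA5, the general chaperone BiP of the endoplasmic reticulum, was 0.64 ± 0.17 higher (adjusted p 0.0282). The chaperone CALR differed by 0.46 (adjusted p 0.149 without the block, 0.0388 with it). TAP2, the partner of TAP1, differed by 0.07 (adjusted p 0.871).

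Of 8 further proteasome genes 7 were tested. Without the block 0 were higher and 1 was lower, while 20.2% of all genes passed in either direction. With it 3 were lower (PSME3, PSMB7 and PSME2), against 15.7% of all genes. The median was -0.37. PSME3, a nuclear proteasome activator, had levels of 7.34, 7.29 and 7.36 on aspirin arrays, against 8.20, 7.87 and 8.17 on control arrays. It differed by -0.75 ± 0.14 (adjusted p 0.00826), and its groups did not overlap. The constitutive subunits PSMB7 and PSMB6 differed by -0.39 and -0.37 (adjusted p 0.0660 and 0.110 without the block, 0.0385 and 0.0760 with it). PSME2, an interferon-inducible activator, differed by -0.38 (adjusted p 0.146 without the block, 0.0366 with it). PSMB10, the remaining subunit that is exchanged in the immunoproteasome, differed by 0.14 ± 0.24 (adjusted p 0.718), unlike PSMB8 and PSMB9 in sign, though the difference between these subunits was not tested.

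Of 30 regulators of class I expression 24 were tested, with a median of -0.19. Without the block 0 were higher and 2 lower, while 20.2% of all genes passed in either direction. With it 2 were higher and 8 lower, against 17.5% and 15.7% of all genes. IFNAR2, a chain of the type I interferon receptor, differed by -0.78 ± 0.17 (adjusted p 0.0143). IRF9, a DNA-binding factor of the interferon-stimulated response element, averaged 11.03 ± 0.18 on aspirin arrays and 11.74 ± 0.51 on control arrays (SD; adjusted p 0.0776 without the block, 0.0105 with it). NFKB1, a kappaB-binding subunit, differed by -0.41 (adjusted p 0.0716 without the block, 0.0490 with it).

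Outside the rule that chose these genes, and named after their values were seen because of their known role, are RELA, NLRC5, IRF1 and CIITA. RELA, another kappaB-binding subunit, went the other way from NFKB1. It differed by 0.52 (adjusted p 0.0931 without the block, 0.0216 with it). NLRC5, the class I transactivator, had levels of 4.50, 5.05 and 5.29 on aspirin arrays, against 5.25, 5.61 and 5.77 on control arrays, and was above background on 2 of the 3 aspirin arrays. NLRC5 differed by -0.60 (adjusted p 0.0995 without the block, 0.00845 with it). IRF1 differed by -0.13 ± 0.24 (adjusted p 0.761), and CIITA, the class II transactivator, was not above background on any array.

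Of 14 class I-like and NKG2D ligand genes 10 were tested, with a median of -0.11. Without the block 2 were higher and 0 lower, while 20.2% of all genes passed in either direction. ULBP1, a stress-induced ligand of the activating receptor NKG2D on natural killer cells, had levels of 8.11, 8.31 and 7.98 on aspirin arrays, against 6.27, 6.16 and 6.48 on control arrays. It rose by 1.83 ± 0.15 (adjusted p 0.000379), or 3.55-fold, with no overlap. FCGRT, the neonatal Fc receptor, which also pairs with B2M, rose by 0.85 ± 0.18 (adjusted p 0.0141). ULBP2, another NKG2D ligand, differed by 0.53 (adjusted p 0.0702 without the block, 0.0246 with it). CD1D, which presents lipids, differed by -0.56 (adjusted p 0.102 without the block, 0.00862 with it) and was above background on 2 of the 3 aspirin arrays.

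Of 12 class II genes 5 were tested and 0 passed without the block, against 20.2% of all genes. In limma 1 of the 5 had an unadjusted p under 0.05, against 34.1% of all genes. Of the 12, 7 were not above background on any array, the invariant chain CD74 among them. HLA-DRA differed by 0.38 (adjusted p 0.0875). HLA-DMB, above background on 1 of the 3 aspirin arrays, differed by -0.34 (adjusted p 0.177). HLA-DOB, above background on 2 of the 3 aspirin arrays, differed by -0.55 (adjusted p 0.15 without the block, 0.0401 with it). The protease CTSS, above background on 2 of 3 arrays in each group, differed by -0.35 (adjusted p 0.529). Of 5 inhibitory ligands 2 were tested. CD47, which restrains phagocytes, fell by 1.21 ± 0.24 (adjusted p 0.00996), and PVR, a ligand of the receptors TIGIT and DNAM-1, rose by 0.50 ± 0.13 (adjusted p 0.0259). CD274, which encodes PD-L1, was not above background on any array.

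**Figure D4:**
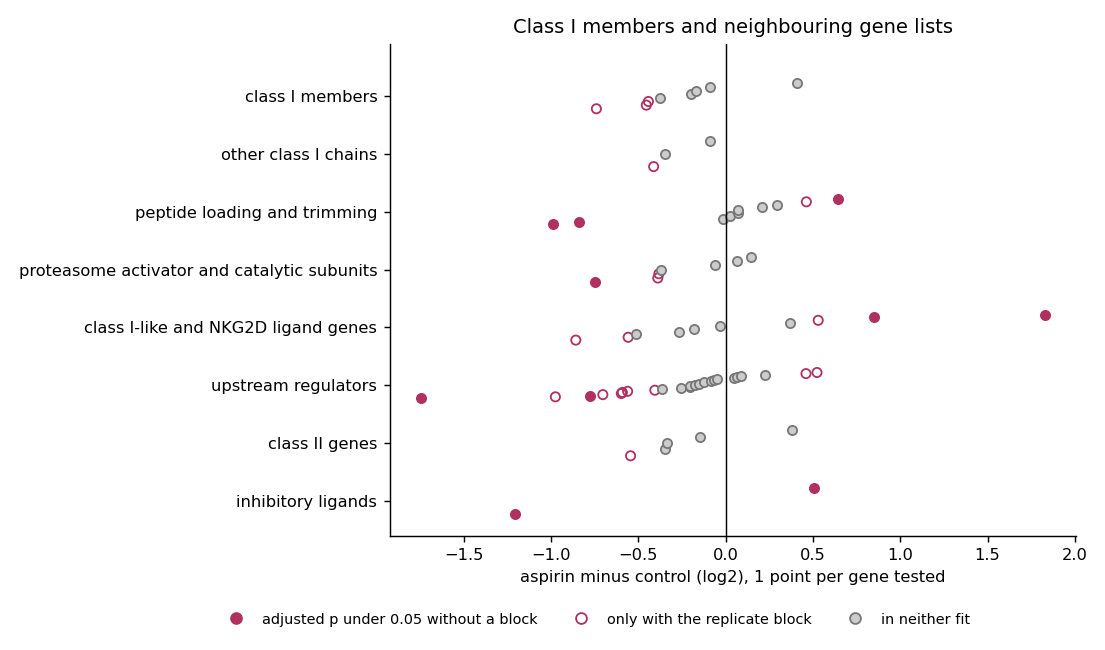
Aspirin minus control (log2, horizontal axis) for each gene tested among the class I members and the 7 neighbouring lists. Filled red points had an adjusted p under 0.05 without a block, open red points only with the replicate block and grey points in neither, and HLA-C is not drawn because it was tested under another filter. ULBP1 lies at 1.83, beyond all 8 members shown.

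The arrays had median signals of 101.9 to 127.0 intensity units over an estimated background of 95.43 to 115.7, and 14691 to 15170 genes detected. All 12 squamous epithelial markers were above background on every array. Their summed signal above background ran from 39700 to 48500 on aspirin arrays and from 57160 to 73010 on control arrays. Without the block 4 of the 11 tested were lower with aspirin, against 1470 of all 15128 genes tested. KRT14 (-1.27, adjusted p 0.00125) and KRT5 (-1.27, adjusted p 0.00170) were among the 4. The other 7 did not pass. Of these, CDH1 (0.24, adjusted p 0.461) and TP63 (0.13, adjusted p 0.561) differed in the other direction, and KRT17 differed by -0.03 (adjusted p 0.909). Of 10 leukocyte markers 6 were not above background on any array, PTPRC, CD3E, LYZ, ITGAM and NKG7 among them. CD14 and CD68, the 2 tested, were above background on all 6; CD14 was lower with aspirin (-0.94 ± 0.24, SE, adjusted p 0.0266) and CD68 differed by -0.001 (adjusted p 0.996). The summed signal of the leukocyte markers was 838.1 to 1497 on aspirin arrays and 1392 to 1700 on control arrays. Of 7 fibroblast markers 2 were not above background on any array (PDGFRB and THY1) and 3 were above it on all 6. Without the block all 4 tested were lower with aspirin in limma, against 1470 of all 15128 genes tested. COL1A1 (-1.23, adjusted p 0.0071), COL1A2 (-1.035, adjusted p 0.0193) and LUM (-2.88, adjusted p 0.00128) were above background on all 6 arrays. DCN, the remaining gene of the 4, was above background on 3 control arrays and 0 aspirin arrays. It passed the detection filter through the control arrays alone, so its direction was largely set by the filter. The summed signal of the fibroblast markers was 90.41 to 150.6 on aspirin arrays and 360.2 to 1032 on control arrays. The 4 endothelial markers summed to 7.671 to 30.88 on aspirin arrays and 5.177 to 66.85 on control arrays, and 2 were not above background on any array. The part of these markers in the class I differences was not tested, and in bulk RNA fewer cells of a type and less RNA per cell cannot be told apart.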

How the data were processed

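Per the file headers, the deposited table gives a signal intensity per gene and array, not normalized and with background in it. The submitters' processing notes name GenomeStudio 1.9.0. Neither probe annotation nor build is stated in the labels or headers. The detection columns are headed p-values, but the deposited values run as a score of 1 minus p (mean 0.994 for the 1000 brightest genes, 0.170 for the 1000 dimmest) and were read so. Each gene has 1 line, which summarises its probes, where the design had assumed probes. 1 gene, at signal 0, was dropped. The authors' deposited intensity matrix is the same signal minus a constant per array. In it 15338 genes carry their own value, while 7171 carry that of the next gene and 12173 that of the gene after it (within 0.3 units), TAP1, TAPBP, PSMB8 and PSMB9 among the last. It was used, realigned, as an alternative only. The realignment keeps values that match the signal table within 0.3 units, so its differences were bound to be near the main ones. It is therefore not a separate check.

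Background mean and SD per array were inferred from 27647 genes, those with scores at multiples of 1/770 (within 0.005). Signals were corrected by normexp with an offset of 16, log2 transformed and then quantile normalized. Genes scoring over 0.95 on 3 or more of the 6 arrays were tested with limma 3.58.1 in R 4.3.3 (lmFit and eBayes, no covariates) and adjusted by Benjamini-Hochberg over all 15128. The signal filter used for HLA-C takes genes that exceed the mean background by 3 SD on 3 or more arrays. A gene was above background on an array where either its score or its signal passed. The plain fit was tried on simulated data with independent noise on each array. The blocked fit was not tried in this way. Same-numbered arrays deviated from their group means together (r = 0.508, 0.516 and 0.320 for replicates 1, 2 and 3). A fit blocked on replicate number was therefore set beside the plain fit, which ignores the pairing. The labels do not state this pairing, which was read from these same data. Named are all 9 members, up to 4 genes with the smallest p per list, and the 5 genes most like and most unlike the members' mean. PSMB10 and TAP2 were named outside this rule, as were RELA, NLRC5, IRF1 and CIITA. Members and lists were chosen with earlier results of these data known. A few listed genes are not reported here.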

Additional observations from a re-analysis of the deposited data

How the results depend on the processing

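Of 250 alternatives over the 9 members, 205 left the direction, and the call where a test was made, as they were. A further 36 brought a member past the threshold, 1 took HLA-C out of it and 7 changed the sign of a difference not called in any fit. For HLA-C the only alternatives were the fit with no filter and the blocked fit under the signal filter. Other backgrounds, normalizations and left-out arrays were not tried for HLA-C, so its call was checked less widely than those of the other members. The chip 2 pair alone gives no p, so its entries concern direction and size only. Leaving out replicate 2 is the same fit as chip 1 alone, and that fit is counted under both names. HLA-B differed by 0.10, 0.03 and 0.02 without aspirin replicate 1, control replicate 2 and control replicate 3, and TAPBP by 0.002 without aspirin replicate 2, 0.008 without control replicate 3 and 0.035 without replicate 3 of both groups, also with the block. Over all fits that left out arrays, the lowest values were -0.66 for HLA-B, without control replicate 1, and -0.23 for TAPBP, without replicate 1. The count of members called higher, 0 as reported, was 1 (HLA-E) with no background correction, with an offset of 50, with a trended and robust prior, and with the replicate block under no background correction or the signal filter. The count called lower, 0 as reported, was 1 with no background correction, with an offset of 50 (PSMB8 in both) and with the signal filter (HLA-C). It was 3 with the replicate block, and with the block it was 2 under the all-gene background, 3 with no background correction, 4 under median scaling, 3 under cyclic loess and 4 under the signal filter. With the block on 2 pairs it was 4 without replicate 1, 1 without replicate 2 and 1 without replicate 3. Leaving out arrays without the block gave 0 to 3: 3 without control replicate 1 (TAP1, PSMB8 and PSMB9) and 2 without replicate 1 of both groups (TAP1 and PSMB9). The median over members ran from -0.59, without control replicate 1, to -0.17, without aspirin replicate 1. In the 9 fits with the block PSMB9 was called in 9, PSMB8 in 7, HLA-F in 6, and TAP1 and HLA-E in 2 each; in the 22 others PSMB9 and TAP1 were called in 2, PSMB8 and HLA-E in 3 and HLA-F in 0. HLA-B, B2M and TAPBP were called in none of these fits. B2M differed by -0.25 in the chip 2 pair alone.

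The block raised the pathway list counts to 8 higher and 18 lower, against 4 and 6 without it. The number of genes tested in each list is given above. Over all genes the block raised the count to 5020 (33.2%), with 17.5% higher and 15.7% lower, against 3059 (20.2%) without it. Over all genes 859 were called on chip 1 alone, 2033, 1783 and 1865 without aspirin replicates 2 and 3 and control replicate 3, 440 without replicate 3 of both groups, and 1488 by the ordinary test; the all-gene background gave 2136, and with the block 2230. Fewer arrays enter several of these fits, and otherwise the cause was not tested. Signal over background limits NLRC5, CD1D, HLA-DOB, HLA-DMB, CTSS, DPYSL3 and DCN, each below it on some arrays.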
